A study of Mus musculus with 6 samples.

Results

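The genes of the mitochondrial respiratory chain were followed in the retina of mice with oxygen-induced retinopathy (OIR), with and without chronic intermittent hypoxia (CIH). A gene was counted as a member if its symbol was that of a subunit of complex I (Nduf and mt-Nd genes), complex II (Sdha to Sdhd), complex III (Uqcr genes and mt-Cytb), complex IV (Cox4 to Cox8 and mt-Co genes) or complex V (Atp5 and mt-Atp genes) and if its total count over the 6 libraries was at least 60. The rule found 94 genes of the 32285 in the table, 81 of nuclear DNA and all 13 protein genes of mitochondrial DNA. Of the 20021 genes that had a total count of at least 10 and were tested, these 94 were a part. Cox7b2 (total count 6), Cox6a2 (30) and Cox8c (0) fell below the minimum, and Ndufb1-ps (9134) was left out because of its pseudogene symbol.

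All 6 libraries came from retinas of wild-type C57BL/6J mice at postnatal day 18 (PN18). Every pup had been kept in 75% O2 for 5 days from PN8, which removes the capillaries of the central retina, and was in room air from PN13, when new vessels grow. The 3 OIR-CIH retinas came from pups that also went through 266 cycles daily, over 10 h, in which O2 went from 20.95% to 5% and back within 135 s, and the 3 OIR-Norm retinas from pups given the same gas flow with no change in O2. Each group was stated to be 3 eyes; whether an eye of 1 animal gave each library is not given in the sources used here, so that the p-values below measure the spread between libraries. Total counts were between 26289905 and 38010151 per library, with overlap between the groups. The tissue was retina by its markers, since the 10 rod photoreceptor genes summed to between 55010 and 71670 CPM, counts scaled to a common library size, in every library. In whole tissue, fewer cells of a type and less RNA per cell cannot be told apart.

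The respiratory chain passes electrons from NADH (through complex I) and succinate (through complex II) over ubiquinone, complex III and cytochrome c to complex IV, which reduces oxygen to water. Complexes I, III and IV pump protons, and complex V, the ATP synthase, uses their return to make ATP. Photoreceptors pack mitochondria into their inner segments and are among the body's heaviest users of oxygen. Complex II is made from nuclear genes alone, whereas the other complexes join nuclear subunits, imported from the cytosol, with core subunits that are read from mitochondrial DNA as long precursor RNAs.

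Nuclear genes for these subunits are known to be driven by NRF1 and by the ETS factor GABP. Of the 81 nuclear members, 65 had an upstream sequence in the RefSeq promoter table (build GRCm38.p6). The central letters of the NRF1 element, CGCANGCG on either strand, occurred in the 250 bases before the start of 18 of these 65 genes (27.7%), and in 7.65% of all 27025 genes of the table. The ETS letters CCGGAAG occurred in 18.5% of the members and in 7.83% of all genes. The core letters of the hypoxia response element occurred in 13 of the 65 members against 18.5% of all genes for ACGTG, and in 26 of the 65 against 30.9% for GCGTG. The latter can overlap the NRF1 letters where N is C. These are matches of letters and not binding sites. The upstream sequences of 3 members are shown because they carry the NRF1 letters, in capitals, while their expression differed between the groups to unlike degrees. Atp5k had the highest fold change of the 94 genes, Ndufb4 holds 3 matches, and Sdha, also with 3 matches, was the subunit of complex II without a higher mean in OIR-CIH. They lie on the minus strand at chr5:108434400-108434649, chr16:37654369-37654618 and chr13:74350241-74350490, and each is written 5′ to 3′ and ends at the base before the transcription start.
Atp5k: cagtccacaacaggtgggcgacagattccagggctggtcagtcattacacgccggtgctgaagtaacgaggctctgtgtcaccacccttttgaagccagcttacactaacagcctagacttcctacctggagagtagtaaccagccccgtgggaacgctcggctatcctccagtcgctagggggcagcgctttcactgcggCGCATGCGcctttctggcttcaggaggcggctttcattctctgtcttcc
Ndufb4: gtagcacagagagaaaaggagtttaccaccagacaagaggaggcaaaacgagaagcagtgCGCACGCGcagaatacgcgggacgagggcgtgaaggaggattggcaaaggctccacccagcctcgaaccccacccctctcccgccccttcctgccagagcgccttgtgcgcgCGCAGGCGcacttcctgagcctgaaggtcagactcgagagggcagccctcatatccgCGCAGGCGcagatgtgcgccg
Sdha: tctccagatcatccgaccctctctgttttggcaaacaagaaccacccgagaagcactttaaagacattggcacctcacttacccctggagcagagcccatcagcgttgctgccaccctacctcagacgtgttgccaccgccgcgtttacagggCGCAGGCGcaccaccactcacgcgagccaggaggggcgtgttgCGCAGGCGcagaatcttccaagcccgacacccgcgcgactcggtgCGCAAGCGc

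The first question was whether CIH changed any of these genes. No member was called at an adjusted p under 0.05 with a log2 fold change beyond 0.5, the study's thresholds, in edgeR's quasi-likelihood test over all genes, beside 63 of 20021 genes (0.315%). No member had an adjusted p under 0.05 alone, beside 0.390% of all genes, and DESeq2, limma and limma-voom likewise gave 0 members. The lowest adjusted p of a member was 0.208, for Atp5k. Before adjustment, 39 members had a p under 0.05, and all 39 were nuclear genes with the higher mean in OIR-CIH, where 6.20% of all genes tested had such a p with a higher mean and 7.01% with a lower one. The fitted fold change was above 0 in 77 of the 81 nuclear members (49.5% of all genes), with a median log2 fold change of 0.20 and a range from -0.11 for Atp5l to 0.42 for Atp5k. The median of all genes tested was -0.0028. In 33 of the 81, every OIR-CIH library lay above every OIR-Norm library, beside 9.12% of all genes, and in 0 did every OIR-CIH library lie below, beside 9.26%. The shift was thus small in each gene and of one sign in most. In the 13 genes of mitochondrial DNA, 6 fold changes were above 0 and 7 below, with a median of -0.05, 0 had an unadjusted p under 0.05, and the groups overlapped in all 13. The 7 with most counts had 5 fold changes above 0 and 2 below, with a median of 0.03. The 6 with few counts had 1 above 0 and 5 below, with a median of -0.25. For most of these 6 the counts need not give RNA levels, as described below.

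**Figure D1:**
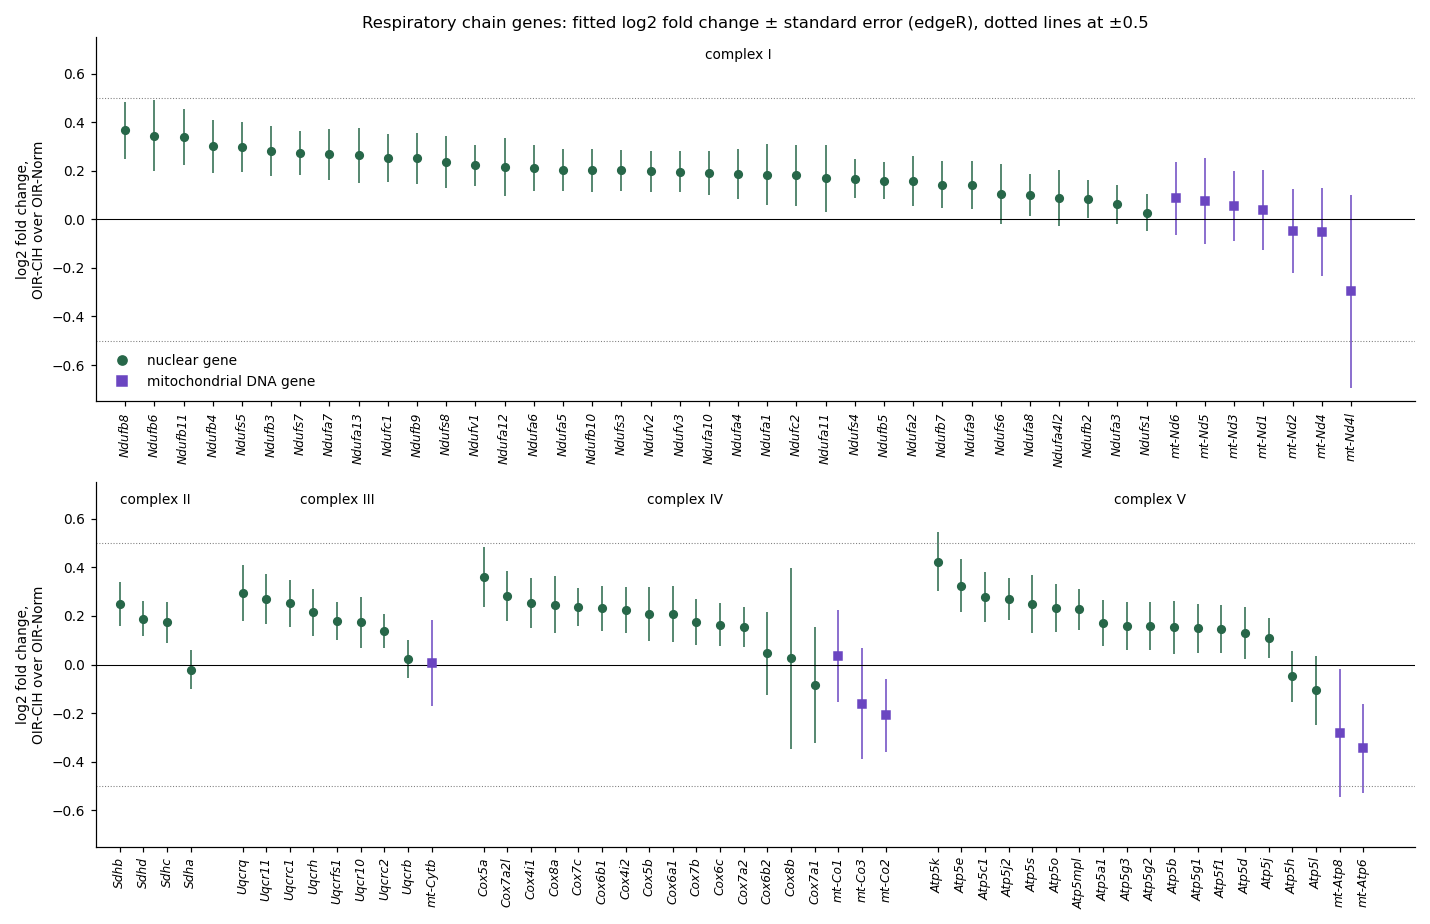
Fitted log2 fold change (OIR-CIH over OIR-Norm) of respiratory chain genes by complex, with 1 standard error on each side; circles are nuclear genes, squares are genes of mitochondrial DNA, and dotted lines mark the threshold of 0.5. Most circles lie between 0 and 0.42, while the squares lie on both sides of 0.

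One library weighed on this shift. OIR-Norm replicate 2 was the lowest of the 6 libraries in 73 of the 81 nuclear members (90.1%), beside 22.9% of all genes tested. The median deviation of the nuclear members from their own means, on the log2 scale, was 0.14, 0.04 and 0.12 in the OIR-CIH libraries and 0.05, -0.29 and -0.05 in the OIR-Norm libraries. Their summed level was 9159, 8474 and 8995 CPM in OIR-CIH against 8618, 6851 and 7915 CPM in OIR-Norm, so on this TMM scale the groups overlapped by OIR-Norm replicate 1. As a share of all counts in a library, without that scaling, they did not overlap (0.853% to 0.894% against 0.706% to 0.839%). Without OIR-Norm replicate 2, 73 of 81 fold changes were still above 0, but the median was 0.12 and only 7 members had an unadjusted p under 0.05. The number of nuclear members with such a p was 13 without OIR-CIH replicate 1, 38 without OIR-CIH replicate 2 and 18 without OIR-CIH replicate 3. It was 58 without OIR-Norm replicate 1 and 36 without OIR-Norm replicate 3. All of these had the higher mean in OIR-CIH. Of all genes, such a p with a higher mean was found in 3.97% without OIR-Norm replicate 2. For the other runs, in the order above, the share was 3.78%, 5.31%, 4.81%, 6.86% and 5.83%. How many single genes stand apart therefore depended on which libraries were used, and the sign of most did not.

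**Figure D2:**
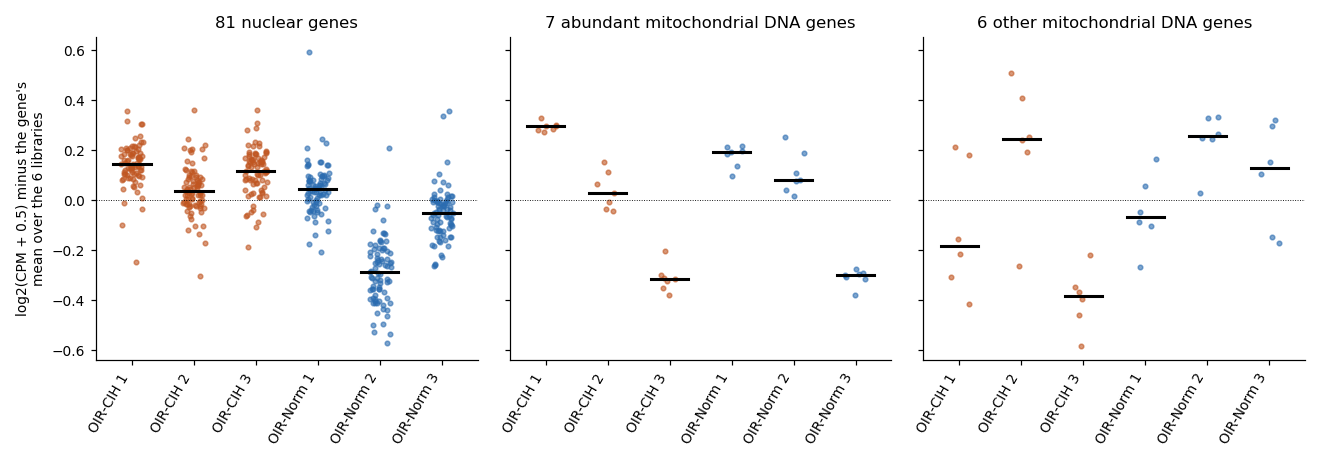
Deviation of each gene from its own mean over the 6 libraries, as log2(CPM + 0.5), with the median of each library as a bar, for 81 nuclear genes, the 7 abundant genes of mitochondrial DNA and the other 6. OIR-Norm 2 sits lowest for the nuclear genes (median -0.29), whereas the abundant mitochondrial genes are lowest in both replicates numbered 3.

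Transcript length moved with the same shift. Most respiratory chain subunits are small proteins with short messages, and of the nuclear members with at least 10 CPM, 46 had a transcript of up to 1 kb, 25 one of 1 to 2 kb and only 7 a longer one. Among genes of at least 10 CPM outside the respiratory chain, the 452 with a transcript of up to 1 kb had a median log2 fold change of 0.15, and 87.6% were above 0. The median was 0.11 for 1803 genes of 1 to 2 kb, 0.03 for 4252 genes of 2 to 4 kb and -0.05 for 3942 longer genes. The nuclear members had a median of 0.21 in the shortest class (46 genes) and 0.20 in the next (25 genes). The short genes outside the chain also deviated most in OIR-Norm replicate 2, by -0.22 in the median, and without that library their median was 0.09, beside 0.11 for the 46 short members. The part of transcript length in the shift of the members was not tested.

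**Figure D3:**
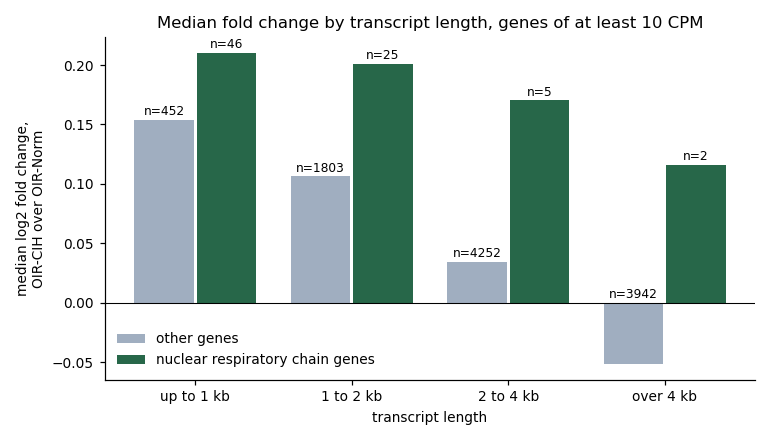
Median log2 fold change (OIR-CIH over OIR-Norm) in 4 classes of transcript length for nuclear respiratory chain genes and for all other genes of at least 10 CPM, with the number of genes above each bar. Short genes outside the chain have medians of 0.15 and 0.11, against 0.21 and 0.20 in the chain; the 2 longer classes hold only 5 and 2 members.

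Complex I is the largest of the complexes, and 37 of its nuclear genes were members. All 37 had a fold change above 0, with a median of 0.20, 20 had an unadjusted p under 0.05 and in 17 the groups were apart. The 37 hold Ndufa4 and Ndufa4l2, placed here by name. Without both, all 35 were above 0, with a median of 0.20, and the counts of 20 and 17 were unchanged. Beside these counts and those of the complexes below, 49.5% of all genes tested were above 0. Such a p with a higher mean was found in 6.20% of all genes, and in 9.12% every OIR-CIH library lay above the others. The 7 nuclear core genes, which carry the flavin and iron-sulphur clusters, had a median of 0.22. The 30 others, Ndufa4 and Ndufa4l2 among them, had one of 0.19. By name, the 10 Ndufb genes, subunits of the membrane arm, had a median of 0.27, the 8 Ndufs genes 0.22, the 3 Ndufv genes 0.20 and the 14 Ndufa genes 0.19, differences that were not tested. Ndufb8, a membrane arm subunit, was measured at 146, 147 and 133 CPM in OIR-CIH and at 121, 85.7 and 124 CPM in OIR-Norm. The OIR-CIH values were all above the others, with a log2 fold change of 0.37 ± 0.12 (SE) and an adjusted p of 0.252. Ndufv1, which binds NADH, was at 148 ± 8.11 CPM in OIR-CIH and 127 ± 12.3 CPM in OIR-Norm (SD, n = 3), a fold change of 0.22. At the other end stood Ndufs1, the largest core subunit, with 117, 112 and 101 CPM against 114, 103 and 108 CPM. Its groups overlapped and its fold change was 0.03 (95% interval -0.14 to 0.20).

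Complex II, the succinate dehydrogenase of the citric acid cycle, is anchored by Sdhc and Sdhd and holds the flavin subunit Sdha and the iron-sulphur subunit Sdhb. Sdhb was at 63.1, 59.8 and 63.6 CPM in OIR-CIH and 57.6, 44.7 and 54.4 CPM in OIR-Norm, with no overlap, and its fold change was 0.25 ± 0.09 (adjusted p = 0.293). Sdhd was at 68.2, 64.1 and 65.1 CPM against 59.9, 53.2 and 59.9 CPM, again without overlap (0.19 ± 0.07, adjusted p = 0.314). Sdhc had a fold change of 0.17 with overlap, at 101 ± 5.74 CPM and 89.4 ± 9.15 CPM. Sdha alone of these subunits had a fold change below 0, and differences between the subunits were not tested. Sdha was at 314, 280 and 303 CPM in OIR-CIH and 321, 297 and 293 CPM in OIR-Norm. Its fold change was -0.02 (95% interval -0.20 to 0.15), an interval that overlapped those of the other 3 subunits. Per kb of transcript Sdha, at a mean of 104 CPM per kb, was also above Sdhb (50.1), Sdhd (50.2) and Sdhc (30.0).

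Complex III takes electrons from ubiquinol to cytochrome c. All 8 nuclear genes had a fold change above 0, with a median of 0.20, 5 had an unadjusted p under 0.05 and in 4 the groups were apart. Uqcrq, a small subunit, had the highest value, with 107, 108 and 99.5 CPM in OIR-CIH against 95.1, 66.2 and 94.6 CPM in OIR-Norm (0.29 ± 0.12, adjusted p = 0.320). Uqcrc1, a core protein of the matrix side, was at 209, 183 and 201 CPM against 188, 144 and 166 CPM, and the groups overlapped through OIR-Norm replicate 1 (0.25 ± 0.10). Uqcrb, another small subunit, was at 70.8 ± 4.19 CPM and 69.7 ± 5.51 CPM, a fold change of 0.02 (95% interval -0.15 to 0.19).

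Complex IV, cytochrome c oxidase, had 15 nuclear members with a median of 0.21. The fold change was above 0 in 14, and 6 had an unadjusted p under 0.05. Cox5a, a subunit of the matrix face, had the highest, with 39.4, 37.9 and 46.7 CPM in OIR-CIH against 38.3, 26.6 and 31.8 CPM in OIR-Norm (0.36 ± 0.12, adjusted p = 0.283), and OIR-CIH replicate 2 lay just below OIR-Norm replicate 1. Cox7a1, the heart and muscle form of its subunit, had the lowest, at 1.56 ± 0.0445 CPM against 1.64 ± 0.454 CPM (-0.08, 95% interval -0.60 to 0.43). Complex IV is known for subunits that come in alternative forms by tissue or oxygen.

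Cox4i1 is the common form of subunit 4, and Cox4i2 the form known from lung and from pericytes and raised by low oxygen in some cells. Cox4i1 was at 206, 203 and 215 CPM in OIR-CIH and 196, 144 and 183 CPM in OIR-Norm, without overlap (0.25 ± 0.10, adjusted p = 0.329). Cox4i2 was at 56.1, 55.5 and 50.2 CPM against 53.2, 43.8 and 41.4 CPM, with overlap (0.22 ± 0.10, adjusted p = 0.351). Per kb of transcript, Cox4i2 was at 27.1 ± 2.41% of Cox4i1 in OIR-CIH and 27.8 ± 4.09% in OIR-Norm (SD, n = 3), a difference within the spread of the libraries. Ndufa4, grouped by its name with complex I but found with complex IV in later protein work, is the common partner of Ndufa4l2, a gene induced by hypoxia-inducible factor. Ndufa4 was at 271, 262 and 262 CPM against 264, 193 and 241 CPM (0.19 ± 0.10), and Ndufa4l2 at 78.1, 69.9 and 66.7 CPM against 81.7, 63.0 and 57.4 CPM (0.09, 95% interval -0.16 to 0.33). Ndufa4l2 was at 17.7 ± 1.09% of Ndufa4 per kb in OIR-CIH and 19.0 ± 3.07% in OIR-Norm, again within the spread. Both ratios were highest in OIR-Norm replicate 2, with 31.7% and 21.3%. All of these genes were below their own means there. On the log2 scale Cox4i1 and Ndufa4 deviated by -0.40 and -0.36, and Cox4i2 and Ndufa4l2 by -0.18 and -0.13. In that library the 12 markers of pericytes and smooth muscle had a median deviation of 0.78 on the log2 scale, and over the groups 11 of the 12 had a fold change below 0, with a median of -0.43 and summed levels of 637 to 714 CPM in OIR-CIH and 627 to 786 CPM in OIR-Norm. Vtn, the 1 marker above 0, made up 66.2% to 86.8% of these sums. Without it, a choice made after its values were seen, the other 11 summed to 94.0, 109.5 and 143 CPM in OIR-CIH and 160.0, 245 and 101 CPM in OIR-Norm, with OIR-Norm replicate 2 the highest and overlap between the groups. The part of these cells in the level of Cox4i2 and Ndufa4l2 was not tested.

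The muscle and sperm forms stayed low in every library. Cox7a1 was at 3.29 ± 0.0661% of the common Cox7a2 per kb in OIR-CIH and 3.85 ± 0.890% in OIR-Norm, Cox8b at 1.13 ± 0.240% and 1.27 ± 0.503% of Cox8a, and Cox6b2, the testis form, at 8.45 ± 1.84% and 9.78 ± 2.85% of Cox6b1. Cox6a2, the muscle form of Cox6a1, had only 30 counts in all 6 libraries. The 9 striated muscle markers tested summed to between 8.07 and 10.8 CPM per library. Cox7a2l was about as abundant per kb as Cox7a2, at 103 ± 6.44% in OIR-CIH and 93.8 ± 5.70% in OIR-Norm. Its own level was 137, 125 and 138 CPM against 124, 90.6 and 114 CPM, with no overlap (0.28 ± 0.10, adjusted p = 0.294). Among the common forms the fold change was 0.15 for Cox7a2, 0.25 for Cox8a, 0.21 for Cox6a1 and 0.23 for Cox6b1. No alternative form thus stood above its common partner in fold change except Cox7a2l, which was paired with Cox7a2 by its name.

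**Figure D4:**
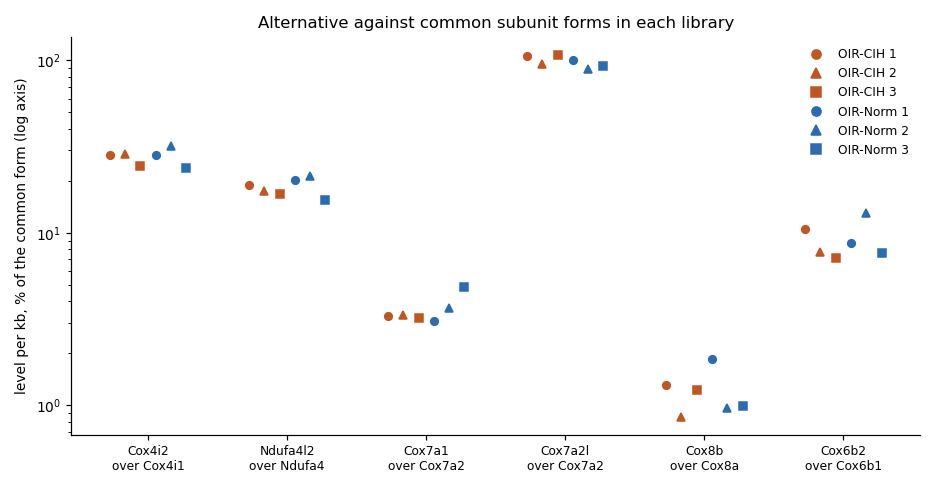
Level per kb of 6 alternative subunit genes as a percent of their common form in each library, on a log axis. Colour gives the group and the marker the replicate number. Cox7a2l is paired with Cox7a2 by its name. The ratios differ between pairs from about 1% to 100%, and OIR-CIH and OIR-Norm libraries overlap in each of the 6 pairs.

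Complex V had 17 nuclear members, 15 with a fold change above 0, and a median of 0.16. Atp5k, the small subunit e that helps to pair ATP synthases into dimers, was at 57.1, 46.2 and 52.4 CPM in OIR-CIH and 42.5, 30.7 and 42.7 CPM in OIR-Norm. The groups did not overlap, the means were 51.9 ± 5.47 and 38.6 ± 6.86 CPM, and the fold change of 0.42 ± 0.12 had an adjusted p of 0.208. The catalytic genes Atp5b and Atp5a1 were the most abundant nuclear members, and Atp5b was at 1129, 1003 and 1148 CPM against 1104, 880 and 965 CPM (0.15, 95% interval -0.08 to 0.39). Atp5a1 was at 650 ± 39.7 CPM against 578 ± 51.3 CPM (0.17, 95% interval -0.04 to 0.38). Atp5g1, Atp5g2 and Atp5g3 encode the same membrane ring subunit, and their fold changes were 0.15, 0.16 and 0.16. Only Atp5l and Atp5h were below 0. Atp5l was at 15.9, 19.0 and 14.9 CPM against 15.1, 16.8 and 21.7 CPM (-0.11, 95% interval -0.41 to 0.20), and Atp5h at 115 ± 14.8 CPM against 119 ± 13.5 CPM (-0.05). Neither was lowest in OIR-Norm replicate 2, unlike most of the nuclear genes. Atp5l, Atp5g2 and the complex IV gene Cox7c are the 3 nuclear members of which at least 50% of the transcript is also found, at 99% identity or more, in transcripts of other genes, so that their counts are uncertain.

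The 13 genes of mitochondrial DNA took 3.48%, 3.05% and 2.36% of all counts in the OIR-CIH libraries and 3.26%, 3.19% and 2.45% in the OIR-Norm libraries. The means, 2.96 ± 0.563% and 2.97 ± 0.447% (SD, n = 3), differed by far less than the spread between libraries, and the replicate numbered 3 was the lowest in both groups. The 95% Wilson interval of a library's share was at most 0.0140 percentage points wide, which covers counting error only. Nuclear members took 0.888%, 0.853% and 0.894% of counts in OIR-CIH and 0.839%, 0.706% and 0.813% in OIR-Norm, so that every OIR-CIH library lay above the others, also with mitochondrial counts left out of the total (0.880% to 0.920% against 0.729% to 0.867%). The libraries were made from poly(A)-selected RNA, and only reads with a single place in the genome were counted, as described below. These shares and ratios are thus of such reads from polyadenylated RNA, and need not give the share of mitochondrial RNA. The ratio of nuclear to mitochondrial counts was 0.255, 0.280 and 0.379 in OIR-CIH and 0.257, 0.222 and 0.331 in OIR-Norm. These ranges overlapped in part, with the highest value in an OIR-CIH library and the lowest in an OIR-Norm library. Thus the libraries in which nuclear and mitochondrial subunits were low were not the same, OIR-Norm replicate 2 for the former and the replicates numbered 3 for the latter.

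By level, 7 genes of mitochondrial DNA held almost all of these counts. The catalytic oxidase gene mt-Co1 took 39.6% to 40.4% of them in OIR-CIH and 38.2% to 40.5% in OIR-Norm. It was at 14190, 12220 and 9486 CPM against 13570, 11820 and 9652 CPM, the replicates numbered 3 being lowest, with a fold change of 0.03 (95% interval -0.38 to 0.45). The cytochrome b gene mt-Cytb was at 6441, 5403 and 4256 CPM against 6011, 5702 and 4325 CPM (0.01, 95% interval -0.38 to 0.39). Of the complex I genes, mt-Nd1 was at 3376 ± 611 CPM against 3285 ± 591 CPM (0.04) and mt-Nd5 at 3915 ± 895 against 3714 ± 594 CPM (0.08). mt-Nd2 (1936 ± 448 against 2001 ± 368 CPM) and mt-Nd4 (2199 ± 478 against 2277 ± 508 CPM) both had a fold change of -0.05. mt-Nd6, the only one of the 13 on the other strand of mitochondrial DNA, was at 1119 ± 225 against 1054 ± 155 CPM (0.09). Per kb its level was 101 ± 3.76% of that of mt-Nd5 in OIR-CIH and 99.9 ± 2.0% in OIR-Norm. Which strand of the reads was counted is not given in the sources used here, and reads of mt-Nd6 and of the RNA opposite to it cannot be told apart without that.

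**Figure D5:**
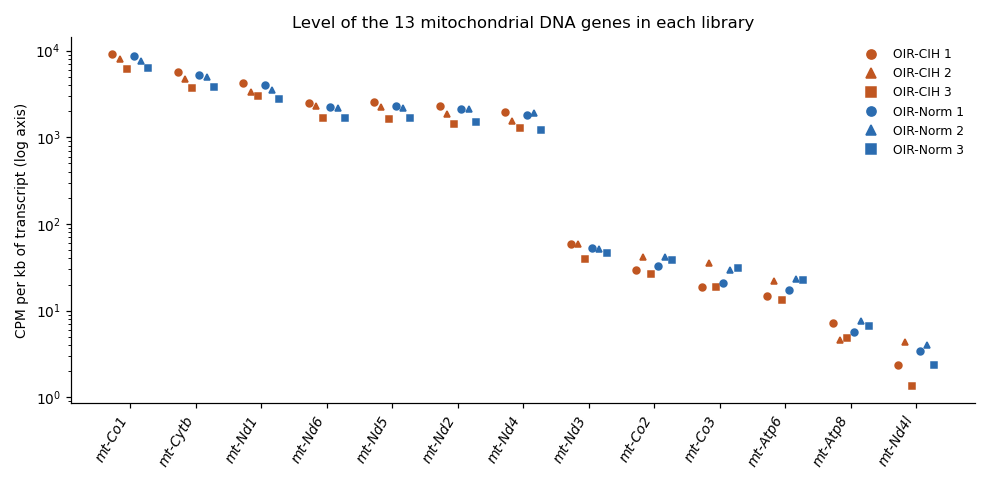
Level of the 13 genes of mitochondrial DNA per kb of transcript in each library, on a log axis, ordered by their mean; colour gives the group and the marker the replicate number. From mt-Co1 to mt-Nd4 the means run from 7652 to 1624 CPM per kb, and the other 6 lie at or below 51.4. Parts of mt-Co1 and mt-Nd4, and nearly all of most of the other 6, match a nuclear copy, and reads that fit both were not counted.

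The other 6 genes, mt-Co2, mt-Co3, mt-Atp6, mt-Atp8, mt-Nd3 and mt-Nd4l, made up only 0.189% to 0.354% of the mitochondrial counts. Their products are as much a part of the complexes as the others, and they lie together between mt-Co1 and mt-Nd4. In the GENCODE M21 annotation (build GRCm38) a nuclear copy of this stretch of mitochondrial DNA lies on chromosome 1, between 24611535 and 24616197 on the minus strand, as a row of pseudogenes. Pseudogenes there match 681 bases of mt-Co2 (Gm28661), 783 of mt-Co3 (Gm28437), 678 of mt-Atp6 (Gm10925) and 294 of mt-Nd4l (Gm10222) at 100% identity, and 345 bases of mt-Nd3 (Gm28438) with 1 mismatch. These make up between 99% and 99.9% of each of the 5 genes. mt-Atp8 matched no annotated transcript of another gene, and neither did mt-Nd1, mt-Nd2, mt-Nd5, mt-Nd6 and mt-Cytb, while 63.6% of mt-Nd4 and 31.3% of mt-Co1 matched. The counting mode the study used keeps only reads with a single place in the genome. The first 120 bases of mt-Co2 (mitochondrial DNA 7013 to 7132) and of its copy Gm28661 (chr1:24615446-24615565, minus strand) are shown because a read from either fits both; they held 0 mismatches, hence no capitals.
mt-Co2: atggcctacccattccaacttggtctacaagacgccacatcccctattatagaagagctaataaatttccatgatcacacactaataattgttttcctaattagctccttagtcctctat
Gm28661: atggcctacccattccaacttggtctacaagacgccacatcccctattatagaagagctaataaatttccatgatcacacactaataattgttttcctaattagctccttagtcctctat
Reads with both places are not counted in that mode, so the counts of these 5 genes need not give their RNA levels. The same holds in part for mt-Nd4 and mt-Co1, whose levels per kb were taken over the full transcript. mt-Atp8 was as low as those 5 genes. Since only annotated transcripts were compared, a copy of it in the stretch between Gm10925 and Gm28661, which holds no annotated match, was not looked for. The part of the nuclear copy in the low counts of the 6 genes was not tested. mt-Co2 was at 20.4, 28.4 and 18.3 CPM in OIR-CIH and 22.3, 28.6 and 26.4 CPM in OIR-Norm (-0.21, 95% interval -0.53 to 0.12). mt-Atp6 had the lowest fold change of the 94 genes, with 10.1, 14.9 and 9.0 CPM against 11.7, 15.9 and 15.5 CPM (-0.35, 95% interval -0.74 to 0.05, adjusted p = 0.448). The fold change was -0.16 for mt-Co3, -0.30 for mt-Nd4l, -0.28 for mt-Atp8 and 0.06 for mt-Nd3, and mt-Nd4l and mt-Atp8 were below 2 CPM in every library. As a set the 6 did not follow the 7 abundant genes from library to library. Their median deviation was -0.18, 0.25 and -0.38 in OIR-CIH and -0.07, 0.26 and 0.13 in OIR-Norm, beside 0.30, 0.03 and -0.31, and 0.19, 0.08 and -0.30 for the abundant 7.

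Other genes of the same pathways were counted in lists that do not hold the members. None of the genes in these 8 lists was called or had an adjusted p under 0.05 in edgeR's test. Of 78 mitochondrial ribosomal proteins, which translate the 13 messages, 68 had a fold change above 0 (49.5% of all genes), with a median of 0.12. An unadjusted p under 0.05 was found for 13 of them, all 13 with the higher mean in OIR-CIH (6.20% of all genes). Mrps16 had the lowest p of them (0.35 ± 0.12, adjusted p = 0.290). Of 51 assembly factors tested, 45 were above 0 (median 0.10), with Dmac2, a complex I assembly factor, at 53.3 ± 2.36 against 46.4 ± 0.977 CPM (0.20, adjusted p = 0.290). All 15 carriers and outer membrane genes were above 0 (median 0.12), among them the ADP/ATP carrier Slc25a5 (0.29 ± 0.11, adjusted p = 0.303). The citric acid cycle had 13 of 16 above 0 (median 0.06) and the electron carriers and ubiquinone genes 14 of 19 (median 0.08), where Coq9, a ubiquinone synthesis protein, had the lowest p (0.23 ± 0.08, adjusted p = 0.287). These 5 lists too had their lowest median in OIR-Norm replicate 2, from -0.10 to -0.21 on the log2 scale. Beside them, 87.6% of the short genes outside the chain, of up to 1 kb, were above 0, with a median of 0.15. Genes of these lists were not removed from that set. The part of transcript length in the values of these lists was not tested.

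Genes that act upstream of the chain were on both sides of 0. Of 31 genes for mitochondrial DNA replication, transcription and transcript handling, 16 were above 0 and 15 below, with a median of 0.02. Tfam, which packs mitochondrial DNA and starts its transcription, was at 24.8, 25.1 and 25 CPM in OIR-CIH and 26.3, 23.7 and 26.9 CPM in OIR-Norm (-0.04, 95% interval -0.23 to 0.15). Polrmt, the mitochondrial RNA polymerase, was at 36.8 ± 1.15 against 35.5 ± 0.705 CPM (0.05). Polg2, the accessory subunit of the mitochondrial DNA polymerase, had the lowest p of the list, with 61.4 ± 1.33 against 49.7 ± 3.66 CPM and no overlap (0.30 ± 0.08, adjusted p = 0.150). Of the 16 nuclear regulators, 9 were above 0 and 7 below (median 0.03). Pprc1, a coactivator of NRF1 that is known to answer to growth signals, was at 11.5, 11.9 and 12.7 CPM in OIR-CIH and 17.7, 18.9 and 16.2 CPM in OIR-Norm, with no overlap. Its fold change was -0.55 ± 0.11 and its adjusted p 0.0580, just short of the threshold in edgeR, whereas DESeq2 gave an adjusted p of 0.00184. Its relative Ppargc1a, the coactivator best known for mitochondrial biogenesis, had the opposite sign, with 74.5, 78.9 and 70.9 CPM against 66.6, 67.7 and 65.3 CPM and no overlap (0.17 ± 0.07, adjusted p = 0.339). Gabpb2, a partner subunit of GABP, was at 45.4 ± 4.73 against 57.9 ± 3.32 CPM (-0.35 ± 0.09, adjusted p = 0.149), and the mitochondrial deacetylase gene Sirt3 at 33.2 ± 1.25 against 27.4 ± 2.58 CPM (0.28 ± 0.09, adjusted p = 0.266). Of 11 oxygen-linked regulators, 8 were above 0 (median 0.10), with the lowest p for Ldha, which makes lactate, at 2120, 1926 and 1929 CPM in OIR-CIH and 1760, 1464 and 1518 CPM in OIR-Norm (0.33 ± 0.11, adjusted p = 0.273). Higd1a, which binds complex IV, was at 125 ± 8.45 against 108 ± 1.77 CPM (0.20 ± 0.07, adjusted p = 0.287).

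Cell type markers were set beside these genes, because cells of the retina differ in mitochondria. Of the 10 rod markers, 9 had a fold change above 0, with a median of 0.13, and their median deviation in OIR-Norm replicate 2 was -0.21, in the library where the nuclear members were also lowest. Their sum was 62230 to 71670 CPM in OIR-CIH and 55010 to 71090 CPM in OIR-Norm. The median was 0.16 for 6 cone markers, 0.06 for 8 Müller glia markers, 0.05 for 7 bipolar and 0.12 for 8 amacrine and ganglion cell markers. It was -0.20 for 9 endothelial markers, -0.27 for 10 microglia markers, of which Fcrls alone was called (-0.69, adjusted p = 0.0414), -0.51 for 5 erythroid markers, 0.13 for the striated muscle markers and 0.52 for 5 markers of the pigment epithelium, a tissue that can come away with the retina in dissection (summed level 224 to 328 against 139 to 238 CPM). Beside the call of Fcrls, 0.215% of all genes tested were called with the lower mean in OIR-CIH. Of the pigment epithelium markers, 3 were above 0 and 2 below. Ttr made up most of their sum in every library, at 148 to 216 CPM in OIR-CIH and 86.3 to 134 CPM in OIR-Norm. Among the 8 Müller glia markers, 2 had every OIR-CIH library above the others (9.12% of all genes) and 2 had every one below (9.26%). The part of cell composition in the level of the respiratory chain genes was not tested.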

How the data were processed

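The authors made poly(A) libraries from 250 ng of total RNA with a strand-specific kit and aligned the reads with STAR 2.7.9a; the paper names Ensembl 105 and the submitters' processing notes GRCm38. The deposited values are raw read counts of the 6 libraries over genes, not normalized. The strand column kept is not given in the sources used here. Every column was assigned to 1 library. Depth was 26289905 to 38010151 counts per library.

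Symbols and transcript lengths (principal transcript) came from GENCODE M21, and 127 of 32285 genes had no symbol. Counts were scaled by TMM, given as CPM, and tested in R 4.3.3 with edgeR 4.0.16 (quasi-likelihood, no covariates, total count of at least 10, Benjamini-Hochberg over 20021 genes). limma 3.58.1 with 0.5 CPM added, limma-voom and DESeq2 1.42.0 were alternatives, with other scalings and filters, a replicate block and each library left out. A single-gene exact permutation test with 3 against 3 libraries cannot reach 0.05. Transcripts were compared with blastn 2.17.0 (99% identity, at least 50 bases).

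Members and all lists were chosen with earlier results of these data known. Named genes are the 13 mitochondrial ones, Sdh genes, isoform pairs, the highest and lowest fold change in each complex, up to 3 per list of lowest p and 4 regulators. Ndufv1, Uqcrc1, Atp5a1, Atp5b, Atp5h, the Atp5g genes, Ndufb4, Cox7c, Fcrls and Ttr were chosen after their values were seen. Cox4i1, Cox4i2 and Ndufa4l2 had no promoter entry. Of the listed pathway genes, Uqcc4, Uqcc5, Uqcc6 and Atp5if1 matched no symbol and Pet117 was at 0 counts. The values of 1 member are not reported here by name or shown in the plot of fold changes by complex.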

Additional observations from a re-analysis of the deposited data

How the results depend on the processing

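The count of members called stayed at 0 in every alternative run. Members with an adjusted p under 0.05 were 0 in all but 1 of these, and 2 (Atp5k, adjusted p = 0.0249, and Ndufb8, 0.0470) with all genes that had any count in the test; the cause was not tested. DESeq2 gave Atp5k an adjusted p of 0.0504. Genes called over the whole table numbered 135 with DESeq2, 213 with all genes of any count, and 35 to 104 when libraries were left out, the former with OIR-CIH replicate 1 and the latter with OIR-Norm replicate 3 removed. The median of the nuclear members lay between 0.19 and 0.20 under the other settings and between 0.12 and 0.27 with a library left out, and 74 to 87 of the 94 members were above 0. Nuclear members with an unadjusted p under 0.05 and a higher mean were 36 to 48 under the other settings. With a library left out they were 7 to 58. The share of all genes with such a p and a higher mean was 5.44% to 6.5% and 3.78% to 6.86% in these runs. The median of all 13 mitochondrial genes, those with few counts included, was -0.05 to -0.04 under the other settings and -0.15 to 0.11 with a library left out. Counted against the counts outside mitochondrial DNA, its share was 3.05% in OIR-CIH and 3.06% in OIR-Norm. Pprc1 passed the thresholds with DESeq2 (-0.54) and with all genes of any count (-0.54, adjusted p = 0.0124).

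Over all expressed genes, the deviations of same-numbered libraries correlated at 0.162, 0.143 and -0.238, within the range of the other pairs (-0.404 to 0.224). These values do not settle pairing for smaller sets of genes. The share of counts on mitochondrial DNA genes fell with the replicate number in both groups. It was 3.48%, 3.05% and 2.36% in OIR-CIH and 3.26%, 3.19% and 2.45% in OIR-Norm. With the number as a replicate block, 84 genes and 0 members were called, and 0 members had an adjusted p under 0.05 (lowest 0.0559). An unadjusted p under 0.05 was found for 48 nuclear members, all with the higher mean in OIR-CIH, beside 6.25% of all genes. With this block 82 members were above 0, and the medians were 0.20 for nuclear and -0.05 for mitochondrial genes.

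Some of the named genes changed sign. mt-Cytb was at -0.0004 with limma on log2(CPM + 0.5) and with the block. With a library left out, the log2 fold change ranged from -0.22 to 0.058 for Atp5l, -0.14 to 0.050 for Atp5h, -0.021 to 0.084 for Ndufs1, -0.018 to 0.24 for Ndufa4l2, -0.059 to 0.024 for Sdha, -0.036 to 0.073 for Uqcrb, -0.20 to 0.17 for Cox7a1, -0.23 to 0.60 for Cox8b and -0.13 to 0.17 for Cox6b2. In mitochondrial DNA it ranged from -0.12 to 0.16 for mt-Nd1, -0.23 to 0.11 for mt-Nd2, -0.042 to 0.22 for mt-Nd3, -0.23 to 0.085 for mt-Nd4, -0.84 to 0.061 for mt-Nd4l (15 to 37 counts per library), -0.083 to 0.24 for mt-Nd5, -0.036 to 0.24 for mt-Nd6, -0.15 to 0.14 for mt-Cytb and -0.11 to 0.17 for mt-Co1. The other members named kept their sign.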
